A study of Mus musculus with 9 samples.

Results

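The genes of the eukaryotic translation initiation factors were examined in RNA-seq of pre-cDCs, the committed precursors of conventional dendritic cells (cDCs), from BM and spleen. Members were the protein-coding genes of the count table whose GENCODE M21 symbol begins with Eif and a digit from 1 to 6, leaving out the eIF2alpha kinases (Eif2ak genes) and the Y-linked Eif2s3y. The rule gave 50 of the 51912 genes in the table. The rule reads gene names and biotypes and no measured value. Pre-cDCs were sorted from irradiated BL/6 CD45.1/2 hosts grafted with a 1:1 mix of WT BL/6 CD45.1 BM and DNGR-1 KO CD45.2 BM, so that cells of both genotypes matured in the same animals. DNGR-1 is the dead-cell receptor encoded by Clec9a, and the KO cells carry Clec9a Cre/Cre, made in BL/N-derived ES cells and backcrossed to C57BL/6J. BM gave 3 WT samples and 3 of DNGR-1 KO origin. Spleen gave 1 WT sample and 2 of DNGR-1 KO origin. Each sample was pooled from 2 mice, and the labels name no treatment. All hosts had been irradiated and grafted. The labels give no age. The study's figure legend gives 6 mice in total, so some pools of 2 mice must have supplied more than 1 sample. The labels do not say which samples share a pool. The main tests treated the samples as independent, so p-values measure only the spread between these samples.

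Initiation factors bring the ribosome to the start codon. The eIF2 complex carries the initiator tRNA and is recharged with GTP by eIF2B, eIF1 and eIF1A hold the small subunit open for scanning, and eIF3 is the large scaffold that joins the small subunit to the mRNA. The eIF4F complex, made of the cap-binding protein eIF4E, the scaffold eIF4G and the RNA helicase eIF4A, recruits capped mRNA, and 4E-binding proteins compete with eIF4G for eIF4E. eIF5 and eIF5B act when the start codon is found and the subunits join, eIF6 keeps free large subunits apart, and eIF5A, despite its name, mainly helps elongation at difficult peptide bonds. Dividing cells are known for high synthesis of protein, and dendritic cells switch translation during maturation.

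Total counts lay between 17103806 and 23722298 per sample, and 3 counts, the most that a count of 0 allows, corresponded to 0.126 to 0.175 CPM (counts scaled to a common library size). Clec9a gave 905, 1574 and 1766 counts in WT BM and 1 count in each DNGR-1 KO BM sample, and 2459 counts in WT spleen against 0 in both DNGR-1 KO spleen samples. All 14 pre-cDC and cDC marker genes, among them Flt3, Zbtb46 and Irf8, had more than 3 counts in every sample. Markers of other cells moved with tissue. Summed T cell markers (7 genes) lay between 1.3 and 12.1 CPM in BM and between 803 and 2940 CPM in spleen, where 6 of 7 had more than 3 counts in every sample. Erythroid markers (5 genes) lay between 113 and 611 CPM in BM and between 7990 and 46600 CPM in spleen, where 3 of 5 passed 3 counts throughout. NK cell markers (5 genes) reached 0.728 CPM in BM and lay between 56.5 and 601 CPM in spleen, and macrophage markers (7 genes) lay between 3.51 and 17.3 CPM in BM and between 165 and 573 CPM in spleen. Neutrophil markers (6 genes) lay between 817 and 2650 CPM in BM, and at most at 0.888 CPM in spleen, where 3 of 6 were at 0 in every sample. Cd3d, which the lineage gate should remove with CD3+ cells, gave at most 0.41 CPM in BM and 91.0 to 429 CPM in spleen. B cell markers (5 genes) spanned 37.7 to 58.4 CPM in BM and 34.7 to 46.5 CPM in spleen, plasma cell markers (3 genes) 3.26 to 12.3 and 0.888 to 44.9 CPM, and pDC markers (4 genes) 556 to 835 and 429 to 944 CPM.

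Pre-cDCs expressed nearly the whole initiation machinery. Of the 50 members, 49 passed the filter on low counts in every comparison, and Eif4e1b, an eIF4E form of the oocyte, had 0 counts in all 9 samples. Together the members took 0.999% to 1.36% of all counts in the BM samples and 0.872% to 0.985% in the spleen samples, ranges that did not overlap. In the single WT spleen sample the share was 0.886% (95% Wilson interval 0.882% to 0.890%, counting error only). Eif5a alone supplied 17.5% to 23.9% of the members' counts in BM and 11.4% to 12.6% in spleen. Without Eif5a the members took 0.824% to 1.04% of counts in BM and 0.767% to 0.861% in spleen, and these ranges overlapped.

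Per kb of exon, Eif5a was the most abundant member in both tissues, at 1008 ± 219 CPM per kb in BM (SD, n = 6). Eif1, which guards start codon choice, followed at 264 ± 22.4 CPM per kb, and Eif3h, a peripheral eIF3 subunit, at 229 ± 34.9 CPM per kb. Eif1 and Eif3h lay within their spread of each other, whereas Eif5a stood clear of both. The RNA helicase genes Eif4a3, whose product sits in the exon junction complex, and Eif4a1 came next at 152 ± 25.5 and 149 ± 20 CPM per kb, again within their spread. The least abundant members with counts were Eif5a2, the minor eIF5A paralog, at 1.36 ± 0.506 CPM per kb in BM, and Eif4ebp3, the minor 4E-binding protein, at 1.81 ± 0.292 CPM per kb. Levels depended on the length used, and with the longest transcript in place of the exon union the first 3 places stayed as they were.

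**Figure D1:**
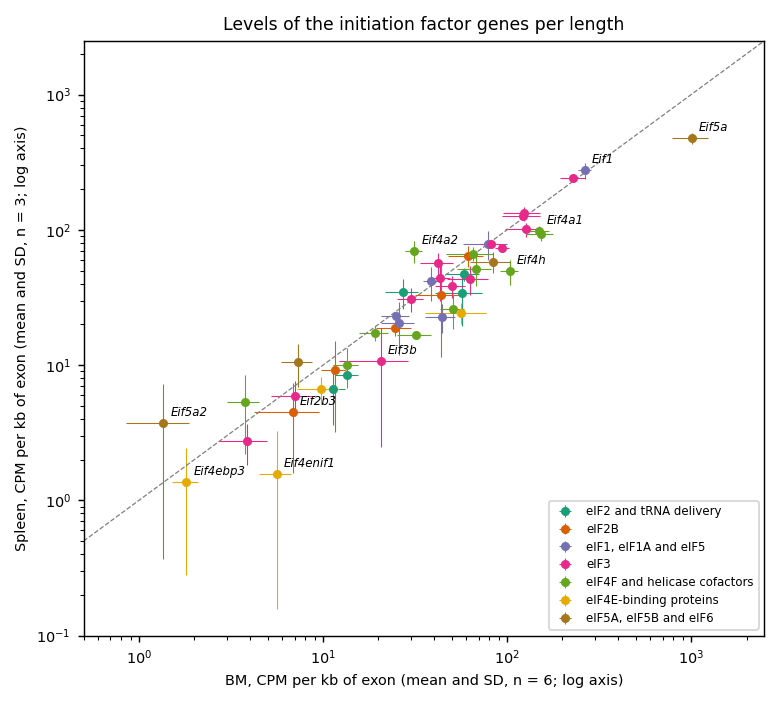
Level of each of the 49 members with counts in BM (x axis, mean and SD, n = 6) and spleen (y axis, mean and SD, n = 3), in CPM per kb of exon on log axes, coloured by functional group, with the dashed line at equal levels. An SD larger than 90% of its mean was drawn to that length below the mean. Eif5a, at 1008 CPM per kb in BM, lies below the line at the top right, Eif4a2 lies above it, and the members with few counts spread most in spleen.

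Within the groups, subunits of one complex differed widely in transcript level. The 12 eIF3 subunits other than eIF3j ranged from 20.6 CPM per kb (Eif3b) to 229 CPM per kb (Eif3h) in BM, an 11.1-fold range, and from 10.6 (Eif3b) to 243 CPM per kb (Eif3h) in spleen, a 22.8-fold range. The loosely bound eIF3j subunit, encoded by Eif3j1 and Eif3j2, gave 3.85 ± 1.11 and 7.05 ± 1.80 CPM per kb in BM. Their products are nearly the same, and reads could have been divided between them. Of the eIF2 group, Eif2s1, which encodes the alpha subunit that stress kinases phosphorylate, was highest (58.1 ± 11.8 CPM per kb in BM). The subunit gene Eif2s3x lay within its spread (56.81 ± 16.45), and Eif2s2 was at 27.15 ± 5.51. Eif2a, an alternative initiator tRNA carrier rather than a subunit of eIF2, was lowest of the group (11.3 ± 1.87). Of the 5 eIF2B subunits, Eif2b2 was highest at 61.0 ± 13.1 CPM per kb and Eif2b3 lowest at 6.85 ± 2.61. Of the 4E-binding group Eif4ebp1 led, at 56.5 ± 20.5 CPM per kb, above Eif4ebp2 at 9.72 ± 2.49.

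The spread between samples of a group was narrower for the members than for genes at large, given here without a test. Members and genes at large were not matched for level, and genes at large include some with few counts in a tissue. The part of count level in the narrower spread was not tested. The highest sample of a group of 3 exceeded the lowest by a median of 1.5-fold over the 49 members in WT BM, 1.4-fold in DNGR-1 KO BM and 1.5-fold across the spleen samples, beside 1.7-, 1.58- and 2.54-fold over all 13468 genes tested. A range over 2-fold was seen for 4 members in WT BM (8.16%, beside 35.5% of all genes), 1 in DNGR-1 KO BM (2.04%, beside 29.7%) and 12 in spleen (24.5%, beside 60.5%). The 3 spleen samples are of both genotypes, so that their range holds any genotype difference.

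The WT BM replicate 1 sample stood apart from the other 2 WT BM samples. Against their mean, 33 of 49 members were higher in it, by a median of 0.42 on the log2 CPM scale. Eif4g2, a scaffold for cap-independent initiation, gave 4850 counts there against 14071 and 14392 in the other 2 WT samples. Eif2s3x, the X-linked gene of the eIF2 gamma subunit, gave 1783 counts against 4337 and 5182. Both were lower in this sample than in any other BM sample. The difference of WT BM replicate 1 from the other 2 correlated with log2 transcript length at r = -0.39 across the 49 members and r = -0.47 across the 10957 genes that averaged 50 counts or more. The corresponding r over the members lay between 0.24 and 0.33 in WT BM replicates 2 and 3 and DNGR-1 KO BM replicates 1 and 2, and was -0.44 in DNGR-1 KO BM replicate 3. Each sample was set against the mean of the others of its group, so the r values within a group are tied to each other. Genes within a sample share a library and are not replicates, and these values are descriptions.

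**Figure D2:**
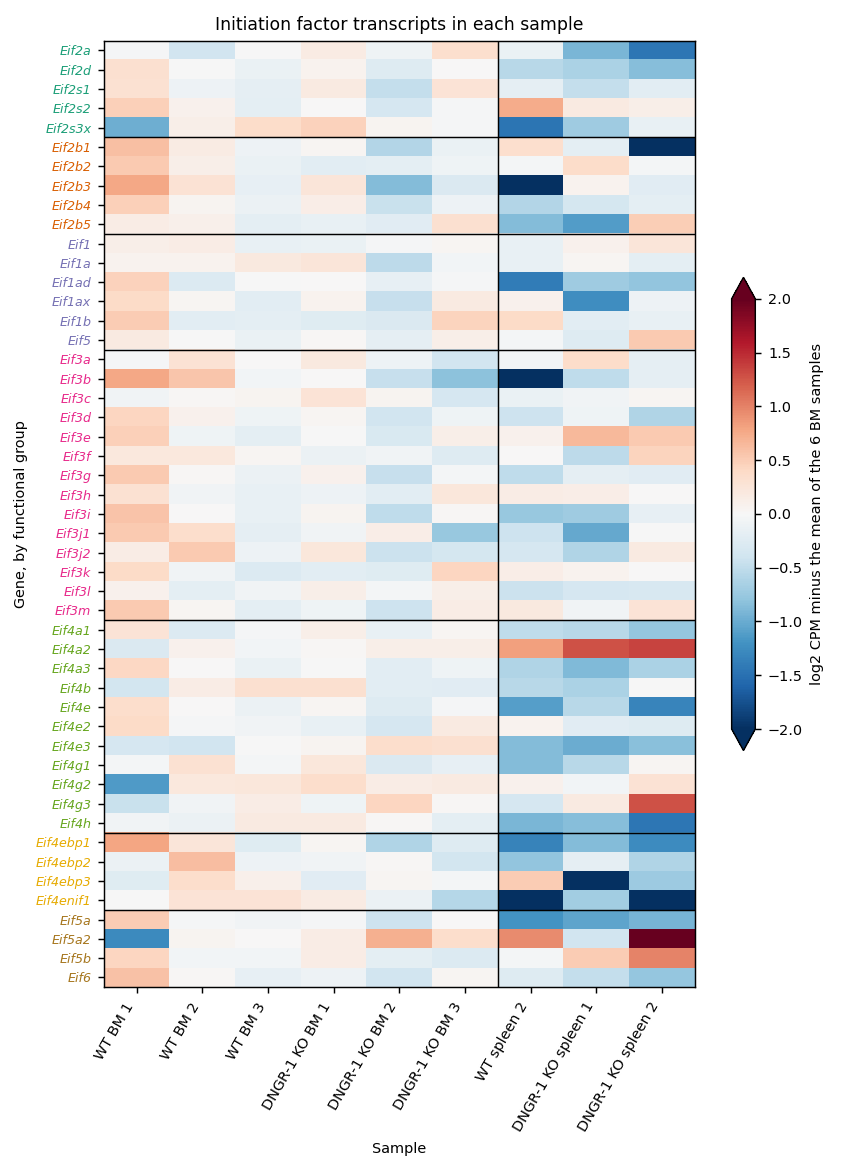
log2 CPM of each member minus its mean over the 6 BM samples (colour scale from -2 to 2, red higher) for the 49 members with counts (rows, grouped by function) in the 9 samples (columns). Most members of WT BM 1 are red, the row of Eif4a2 is red across the 3 spleen samples, the rows of Eif4h, Eif5a and Eif4ebp1 are blue there, and Eif3b, Eif2b3 and Eif4enif1 are darkest in the WT spleen sample.

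Between genotypes in BM, no initiation factor gene passed the threshold. Of 49 members tested, 0 were called (adjusted p under 0.05 by the quasi-likelihood test of edgeR, adjusted over all genes by Benjamini-Hochberg), where 0.0307% of all 13016 genes tested were called. At an unadjusted p under 0.05 there was 1 member (2.04%), Eif3b, beside 3.83% of all genes, and DESeq2 and limma-voom called 0 at the adjusted threshold. The members' lowest adjusted p was 0.861, with standard errors of 0.20 to 0.63 (median 0.25) on the log2 scale.

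The small differences leaned one way. The log2 fold change, DNGR-1 KO against WT, was below 0 for 41 of 49 members (83.7%) beside 50.4% of genes, with a median of -0.18 beside 0.00 over all genes tested (-0.0045). Without WT BM replicate 1, 31 of 49 were below 0 with a median of -0.05, and without DNGR-1 KO BM replicate 2, 32 of 49 with a median of -0.09. All 5 eIF2B genes, all 6 of the eIF1, eIF1A and eIF5 group, 13 of 14 eIF3 genes and all 4 of the 4E-binding group were below 0. Each of these counts rests on estimates that did not pass the test.

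The members farthest from 0 in BM can be given by sample. Eif3b, which encodes a core eIF3 subunit, had 110, 94.4 and 61.7 CPM in the WT samples and 65.0, 46.8 and 36.4 CPM in the DNGR-1 KO samples, and the groups overlapped. Its log2 fold change was -0.87 ± 0.30 (SE, adjusted p = 0.861, edgeR). Eif2b3 (-0.61 ± 0.34), the gamma subunit of eIF2B, and Eif4ebp1 (-0.60 ± 0.30) came next among the members below 0, also at adjusted p = 0.861. Eif5a2 had the highest value, 0.70 ± 0.43, with 44, 126 and 124 counts in WT and 153, 211 and 161 in DNGR-1 KO samples. Eif4e3, an eIF4E family member that binds the cap differently, had 62.1, 60.5 and 78.6 CPM in WT and 81.8, 101 and 98.4 CPM in DNGR-1 KO samples, with a log2 fold change of 0.47 ± 0.22 (adjusted p = 0.861, edgeR). These 2 were the members with every DNGR-1 KO sample above every WT sample (4.08%, beside 5.12% of all genes), and Eif3f, an eIF3 subunit gene, was the 1 with every DNGR-1 KO sample below (2.04%, beside 4.39%).

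Eif2d, whose product can place initiator tRNA without eIF2, lies on chromosome 1 (131153181 to 131187658, GRCm38, plus strand as GENCODE M21 gives it) inside the interval that differs between the CD45.1 and CD45.2 strains. It had 123, 98.7 and 90.1 CPM in WT BM and 104, 82.5 and 98.9 CPM in DNGR-1 KO BM, with a log2 fold change of -0.15 ± 0.23 (adjusted p = 0.913, edgeR). No member lay within 5 Mb of Clec9a.

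In spleen against BM, with genotype in the model, 1 member was higher and 9 were lower. Among all 13468 genes tested, 7.28% were higher and 12.3% were lower, and among the members 2.04% and 18.4%. The members' median log2 fold change was -0.34, beside -0.18 over all genes. Which median was lower depended on the fit. With DESeq2 the members' median was -0.28 beside -0.12. With limma-voom it was -0.33 beside -0.35, and without the filter on low counts -0.36 beside -0.57. All spleen samples lay below all BM samples for 11 members (22.4%, beside 17.7% of genes) and above them for 1 (2.04%, beside 9.04%). The share of members that moved was thus near that of other genes. In bulk samples fewer cells of a type and less RNA per cell cannot be told apart.

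Eif4a2, which encodes a close paralog of the eIF4A1 helicase, was the member that rose. It gave 136, 177 and 160 CPM in WT BM, 168, 181 and 180 CPM in DNGR-1 KO BM, 293 CPM in WT spleen and 402 and 426 CPM in DNGR-1 KO spleen. The log2 fold change was 1.12 ± 0.15 (adjusted p = 0.00156, edgeR), and every spleen sample was above every BM sample. It stayed past the threshold in all 18 alternatives run for this comparison.

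Its paralog Eif4a1, the main helicase of eIF4F, fell. It gave 780, 534 and 634 CPM in WT BM, 695, 581 and 660 CPM in DNGR-1 KO BM, 451 CPM in WT spleen and 439 and 378 CPM in DNGR-1 KO spleen. The log2 fold change was -0.59 ± 0.18 (adjusted p = 0.0443, edgeR), which passed in 5 of 18 alternatives. The ratio of Eif4a2 to Eif4a1 counts lay between 0.174 and 0.331 in the 6 BM samples, and at 0.651 in WT spleen and 0.915 and 1.13 in DNGR-1 KO spleen. The ratio was 3.39-fold higher in spleen (exact permutation test over the 9 samples, 2-sided, p = 0.0238, the smallest this design allows, and 0.0952 adjusted over the 8 count ratios compared).

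**Figure D3:**
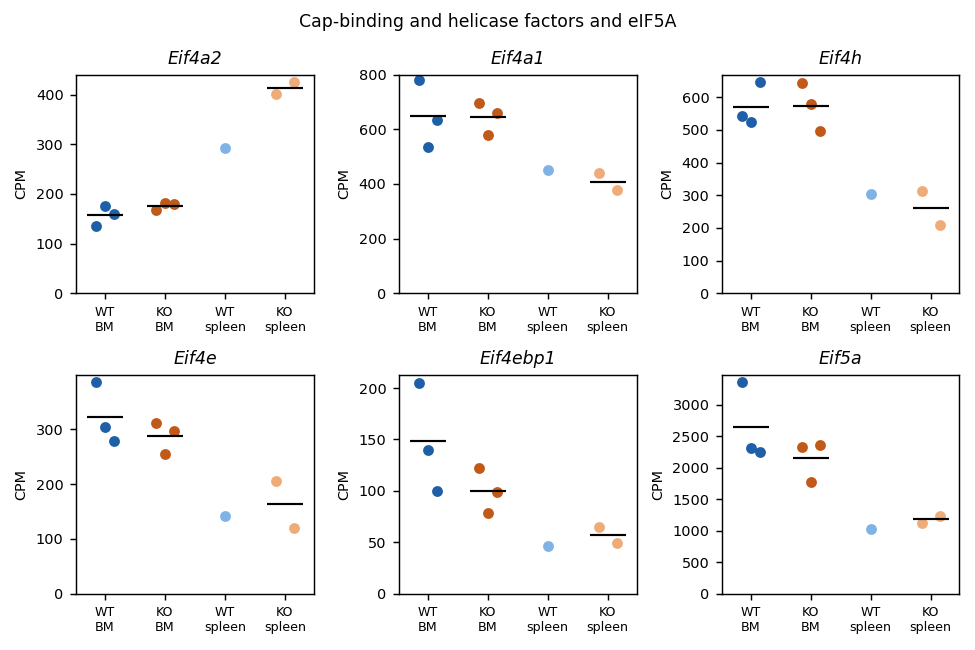
CPM of 6 members in each sample (points) by genotype and tissue, with the group mean as a line where a group has more than 1 sample, on linear axes from 0. Eif4a2 is higher in the 3 spleen samples (293 to 426 CPM) than in the 6 BM samples (136 to 181 CPM), and the other 5 genes are lower in spleen with no overlap.

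Eif4h, a cofactor that stimulates the eIF4A helicase, gave 542, 524 and 648 CPM in WT BM, 644, 581 and 497 CPM in DNGR-1 KO BM, 303 CPM in WT spleen and 314 and 209 CPM in DNGR-1 KO spleen. Its log2 fold change was -1.03 ± 0.19 (adjusted p = 0.00601, edgeR). Another cofactor of the helicase, Eif4b, gave 229 to 370 CPM in BM and 191 to 295 CPM in spleen (log2 fold change -0.38 ± 0.24, adjusted p = 0.307, edgeR) and was not called. Eif4a3 fell by 0.66 ± 0.18 on the log2 scale (adjusted p = 0.0299, edgeR), from 278 to 428 CPM in BM to 173 to 210 CPM in spleen. It passed in 11 of 18 alternatives, and without the WT spleen sample the adjusted p was 0.107.

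Eif4e, the cap-binding subunit itself, gave 386, 304 and 278 CPM in WT BM, 311, 254 and 296 CPM in DNGR-1 KO BM, 141 CPM in WT spleen and 206 and 121 CPM in DNGR-1 KO spleen. It fell by 0.94 ± 0.23 on the log2 scale (adjusted p = 0.0199, edgeR). Eif4e3 fell by 0.93 ± 0.21 (adjusted p = 0.014, edgeR), from 60.5 to 101 CPM in BM to 39.4 to 44.3 CPM in spleen. Eif4e2, a family member that represses the mRNAs it binds, was nearly level at 112 to 184 CPM in BM and 119 to 149 CPM in spleen (-0.10 ± 0.19, adjusted p = 0.786, edgeR). The count ratio of Eif4e2 to Eif4e was 0.411 to 0.544 in BM and 0.588 to 1.05 in spleen, without overlap (exact permutation p = 0.0238, adjusted 0.0952).

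The eIF4G scaffolds did not pass the test. Eif4g1 gave 79.7 to 120 CPM in BM and 53.3 to 99.8 CPM in spleen (-0.43 ± 0.25, adjusted p = 0.285, edgeR), Eif4g2 gave 287 to 801 and 603 to 766 CPM (0.03 ± 0.28, adjusted p = 0.965), and Eif4g3 gave 30.2 to 54.8 and 32.2 to 98.3 CPM (0.38 ± 0.33, adjusted p = 0.49). Of the 4E-binding proteins, Eif4ebp1, the mTORC1 target that masks eIF4E, fell by 1.09 ± 0.32 on the log2 scale (adjusted p = 0.039, edgeR). Its samples gave 205, 140 and 100 CPM in WT BM, 122, 78.1 and 99.0 CPM in DNGR-1 KO BM, 46.8 CPM in WT spleen and 64.6 and 49.6 CPM in DNGR-1 KO spleen. It passed in 12 of 18 alternatives, and without the WT spleen sample the log2 fold change was -0.78 (adjusted p = 0.165, edgeR). The count ratio of Eif4ebp1 to Eif4e, the inhibitor to its target, was 0.307 to 0.531 in BM and 0.314 to 0.411 in spleen (exact permutation p = 0.452, adjusted 0.603), ranges that overlapped. Eif4ebp2 was at 42.7 to 84.2 and 31.7 to 48.5 CPM (-0.49 ± 0.29, adjusted p = 0.28, edgeR), and Eif4ebp3 had 6 to 33 counts in all samples.

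Eif5a, the hypusinated elongation-linked factor, had the largest difference in CPM of the members called. It gave 3357, 2314 and 2245 CPM in WT BM, 2324, 1767 and 2366 CPM in DNGR-1 KO BM, 1025 CPM in WT spleen and 1128 and 1240 CPM in DNGR-1 KO spleen, with no overlap. The log2 fold change was -1.03 ± 0.22 (adjusted p = 0.0118, edgeR). Dohh, the second enzyme of the hypusine pathway that activates eIF5A and no member itself, also fell, by 1.03 ± 0.28 (adjusted p = 0.0324, edgeR), from 87.8 ± 19.4 CPM in BM (SD, n = 6) to 41.1 ± 11.5 CPM in spleen (n = 3). Dhps, the first enzyme, was at 35.8 ± 5.74 and 36.9 ± 10.5 CPM (0.06 ± 0.29, adjusted p = 0.924, edgeR). Eif5a2 had 2.60 to 10.4 CPM in BM, and 12.2, 4.83 and 38.8 CPM in the WT and the 2 DNGR-1 KO spleen samples (1.33 ± 0.63, adjusted p = 0.178, edgeR).

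The remaining calls were Eif1ad and Eif2d. Eif1ad, which carries an eIF1A-like domain and has no settled role in initiation, gave 101 to 167 CPM in BM and 46.1, 73.9 and 70.1 CPM in spleen, a fall of 0.96 ± 0.25 on the log2 scale (adjusted p = 0.0246, edgeR). Eif2d gave 82.5 to 123 CPM in BM and 67.3, 64.0 and 55.0 CPM in spleen, a fall of 0.64 ± 0.19 (adjusted p = 0.0431, edgeR) that passed in 4 of 18 alternatives. None of the 14 eIF3 genes and none of the 5 eIF2B genes was called between tissues, with median log2 fold changes of -0.12 and -0.35. Eif1 was at 500 to 615 CPM in BM and 499 to 653 CPM in spleen (0.07 ± 0.16, adjusted p = 0.812, edgeR), and its paralog Eif1b at 70.9 to 123 and 74.4 to 113 CPM.

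**Figure D4:**
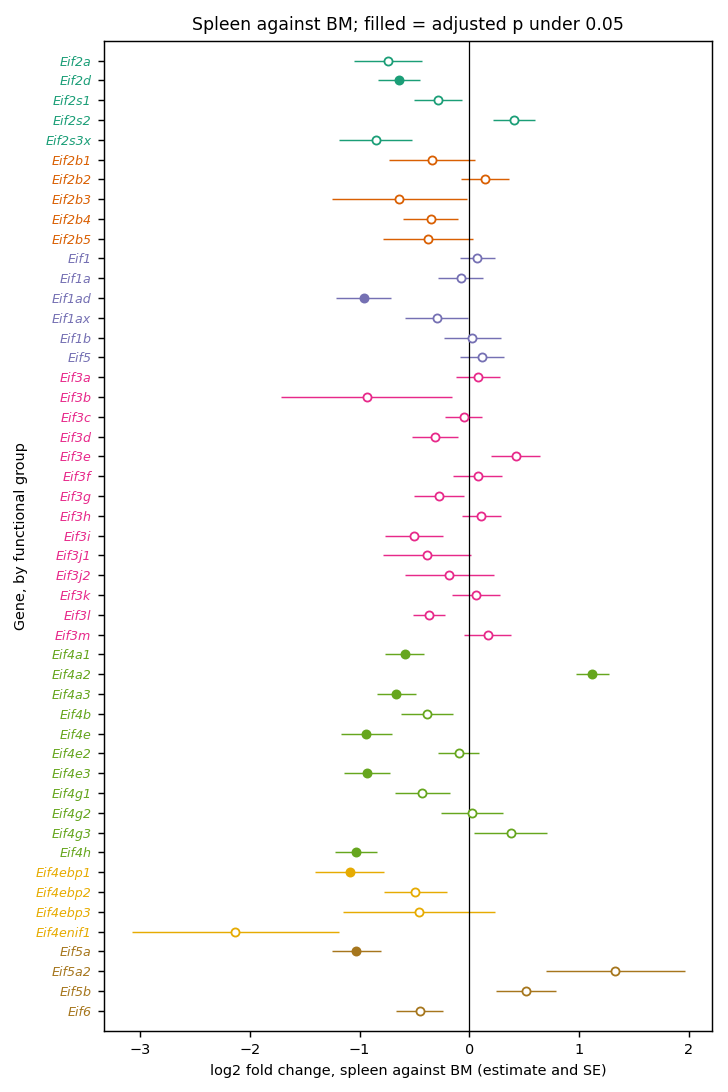
log2 fold change of each tested member, spleen against BM (point, with its SE as a bar), grouped and coloured by function, with filled points for members past the threshold of the edgeR test (adjusted p under 0.05). The 1 filled point to the right of 0 is Eif4a2 at 1.12. The 9 filled points to the left lie between -0.59 and -1.09, 5 of them in the group of eIF4F and helicase cofactors.

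The group of eIF4F and helicase cofactors held 6 of the 10 calls, from 11 tested members (5 lower and 1 higher). Over all genes tested, 12.3% were lower and 7.28% higher. This group also holds Eif4a3 and the cofactor Eif4h, and the scaffold genes Eif4g1, Eif4g2 and Eif4g3 were not called. The number called over all members depended on the samples. Of 18 alternatives each, Eif4h and Eif4e3 passed in 17, Eif4e and Eif5a in 15 and Eif1ad in 14, and the calls of Eif4e, Eif5a and Eif1ad were lost without the WT spleen sample (adjusted p = 0.0968, 0.0601 and 0.118, edgeR). Eif1ad also lost its call without DNGR-1 KO BM replicate 1 (adjusted p = 0.0525, edgeR). With the DNGR-1 KO samples alone, 1 member was higher and 1 lower, and without the WT spleen sample 1 and 3. Without DNGR-1 KO BM replicate 1 the calls were 1 and 4, and without DNGR-1 KO BM replicate 3 they were 1 and 5. The rise in T cell, NK cell, macrophage and erythroid markers in spleen and the fall in neutrophil markers given above moved with these calls, and their part in the calls was not tested. Proliferation genes moved with them too, as given below.

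Promoter windows, from 250 bases before to 50 after the start, were read for 38 of the 50 members from RefSeq (GRCm38.p6). The letters CACGTG, an E-box read the same on both strands, were in a window of 10 of the 38 (26.3%), beside 11.9% of 9221 protein-coding genes tested between tissues. With only the first window of each gene the shares were 21.1% and 10.4%. Among the members lower in spleen, 4 of the 7 with a window held it (Eif4a1, Eif4e, Eif4h and Eif5a), beside 10.3% of all protein-coding genes lower in spleen. The windows of Eif1ad, Eif2d and Eif4a3, also lower in spleen, held none, and neither did that of Eif4a2. Eif4e has 2 windows and Eif5a 6, and with only the first window the count was 2 of 7 (28.6%), beside 8.71% of all protein-coding genes lower in spleen. Over all windows, 10.2% of all protein-coding genes higher in spleen held the motif. The other members that held it (Eif1b, Eif3a, Eif3f, Eif3k, Eif4g1 and Eif5a2) were not called between tissues and are not printed below. TATAAA on either strand was in 7.89% of the members' windows and in 8.42% of those of all genes, and CCGCCC in 78.9% and 68.4%. A start of C followed by at least 4 pyrimidines within 10 bases of the annotated start, the form of a TOP mRNA, was in 28.9% and 36.3%. A match is a description of letters, and no binding was measured. Eif1ad, Eif2d and Eif4a3, which fell without the motif, are not printed, so the stretches do not compare the motif with direction. The stretches of 60 bases below show the motif, in capitals, in 3 members that fell in spleen, and the same length upstream of Eif4a2, which rose, with no match. They lie at chr11:69672580-69672639 (minus strand), chr5:134639491-134639550 (minus), chr11:69921428-69921487 (minus) and chr16:23107384-23107443 (plus).
Eif4a1: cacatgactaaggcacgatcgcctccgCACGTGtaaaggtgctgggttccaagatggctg
Eif4h: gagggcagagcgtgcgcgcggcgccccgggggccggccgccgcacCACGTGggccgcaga
Eif5a: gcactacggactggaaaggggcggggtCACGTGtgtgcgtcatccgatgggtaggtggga
Eif4a2: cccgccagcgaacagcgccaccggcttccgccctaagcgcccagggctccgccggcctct
In these windows the motif began 189 bases before the start in Eif4a1, 96 in Eif4h and 185 in Eif5a.

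In spleen, 3 members were higher in DNGR-1 KO than in WT pre-cDCs, and in each the single WT sample was the lowest of the 9. Of 49 members, 3 were higher (6.12%) and 0 lower in the 4-group fit, beside 8.37% and 2.45% of all 13468 genes. Only 1 WT spleen sample exists, and it was assumed to vary like the other groups. The fit on the 3 spleen samples alone and limma-voom called 0 members, and 4 members had an unadjusted p under 0.05 in the main fit. The WT spleen sample lay at least 4-fold below both DNGR-1 KO spleen samples for the same 3 members (6.12%) and for 11.8% of all genes.

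Eif4enif1, which encodes the eIF4E transporter that carries eIF4E to the nucleus and to P-bodies, gave 9 counts in WT spleen and 388 and 186 in DNGR-1 KO spleen, beside 468 to 859 in the 6 BM samples. The log2 fold change was 4.77 ± 0.83 (adjusted p = 0.00751, edgeR). Eif3b gave 80 counts in WT spleen and 815 and 1341 in DNGR-1 KO spleen, beside 726 to 1860 in BM, with 3.43 ± 0.57 (adjusted p = 0.00609, edgeR). Eif2b3 gave 134 counts in WT spleen and 797 and 848 in DNGR-1 KO spleen, beside 467 to 1219 in BM, with 2.34 ± 0.62 (adjusted p = 0.0467, edgeR). The call of Eif2b3 held in 7 of 16 alternatives and was lost when any 1 of 4 BM samples was left out (adjusted p 0.0509 to 0.0836, edgeR), while that of Eif3b held in 14 of 16 and that of Eif4enif1 in 13 of 15. With at least 10 counts required in every sample, Eif4enif1 was not tested and 1 member was called.

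The genotype difference in spleen differed from that in BM for the same 3 genes. The interaction was 5.12 ± 0.91 for Eif4enif1 (adjusted p = 0.00946, edgeR), 4.29 ± 0.65 for Eif3b (adjusted p = 0.00469) and 2.94 ± 0.72 for Eif2b3 (adjusted p = 0.0375). That is 6.12% of members, beside 7.05% of all genes with a higher and 1.8% with a lower interaction. Limma-voom called 0 members here too.

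**Figure D5:**
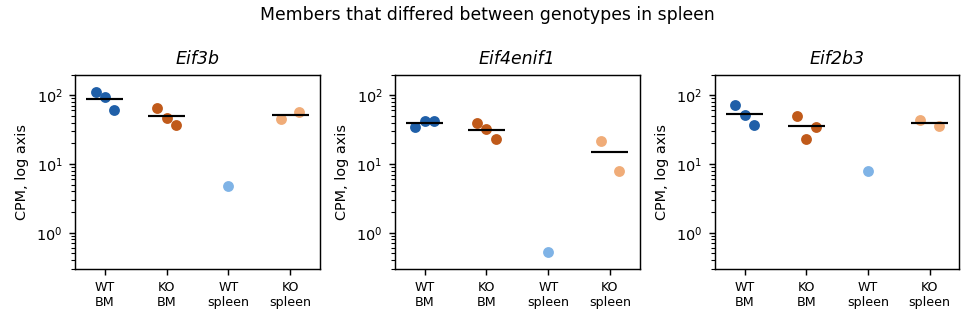
CPM of Eif3b, Eif4enif1 and Eif2b3 in each sample (points, log axis from 0.3 to 200) by genotype and tissue, with the group mean as a line where there is more than 1 sample. The WT spleen point is the lowest in each panel (4.73, 0.532 and 7.92 CPM), and the DNGR-1 KO spleen points lie within or below the BM range.

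Other members varied between the DNGR-1 KO spleen samples as well. Eif2b1, the alpha subunit of eIF2B, gave 2318 counts in WT spleen but 1708 and 604 in DNGR-1 KO spleen (-1.18 ± 0.64, adjusted p = 0.299, edgeR). Eif4ebp3 gave 32 counts in WT spleen and 6 and 19 in DNGR-1 KO spleen (-1.72 ± 1.02, adjusted p = 0.345). Eif5a2 gave 206 counts in WT spleen and 87 and 917 in DNGR-1 KO spleen, and Eif1ax 2402 against 1017 and 2969. Of the 5 members with the largest absolute differences, 3 were thus those called.

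Eif2s3x and Eif1ax lie on the X chromosome, and their values are given with those of Y-linked genes. Eif2s3x gave 1783, 4337 and 5182 counts in WT BM, 6250, 4393 and 4051 in DNGR-1 KO BM, 1276 in WT spleen and 2281 and 4422 in DNGR-1 KO spleen. Its Y-linked paralog Eif2s3y, which the rule left out, gave 0 counts in all 4 WT samples, 182, 2 and 0 in DNGR-1 KO BM and 734 and 535 in DNGR-1 KO spleen. The summed counts of 4 Y-linked genes (Eif2s3y, Ddx3y, Kdm5d and Uty) were 341, 9 and 0 in DNGR-1 KO BM, 1193 and 1807 in DNGR-1 KO spleen, and at most 1 in WT samples. Eif2s3x did not pass the test in BM (0.22 ± 0.32, adjusted p = 0.908, edgeR), between tissues (-0.85 ± 0.33, adjusted p = 0.104) or between genotypes in spleen (1.05 ± 0.53, adjusted p = 0.263). X-linked Eif1ax and its autosomal paralog Eif1a gave 97.6 to 176 and 71.7 to 122 CPM in BM, with a count ratio of 0.992 to 1.62, and 0.536 to 1.53 in spleen.

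Genes that act on the initiation factors were followed from fixed lists. In all these lists, differences between the spleen genotypes rest on the single WT spleen sample. It lay at least 4-fold below both DNGR-1 KO spleen samples for 11.8% of all genes tested. Of 4 eIF2alpha kinases, 0 were called between tissues or genotypes in BM. Eif2ak4 (GCN2, the kinase that uncharged tRNA activates) was called in spleen between genotypes, with 1 count in WT and 254 and 127 in DNGR-1 KO spleen. Of 12 tested genes of the integrated stress response, the program downstream of phosphorylated eIF2alpha, 2 rose and 3 fell in spleen against BM. Over all genes tested, 7.28% were higher and 12.3% lower in spleen. Ppp1r15a, the phosphatase subunit that reverses the phosphorylation, rose (0.96 ± 0.27, adjusted p = 0.0351, edgeR), as did Nupr1 (2.24 ± 0.52, adjusted p = 0.0152). The amino acid synthesis genes Phgdh (-2.65 ± 0.45, adjusted p = 0.00406) and Psat1 (-1.58 ± 0.24, adjusted p = 0.00228) fell, and Asns fell from 345 to 5063 counts in BM to at most 1 count in spleen. Between the spleen genotypes Nupr1 fell, from 2000 counts in WT to 374 and 632 in DNGR-1 KO (-2.32 ± 0.52, adjusted p = 0.0227, edgeR).

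Of 16 genes of mTORC1 and MNK signalling, 2 rose and 0 fell between tissues, beside 7.28% and 12.3% of all genes tested. Ddit4 (REDD1), an mTORC1 inhibitor, had 2.05 ± 0.709 CPM in BM and 8.38 ± 2.33 CPM in spleen (2.05 ± 0.54 on the log2 scale, adjusted p = 0.0273, edgeR). Pdcd4, which binds and blocks eIF4A, had 138 ± 36.9 CPM in BM and 395 ± 244 CPM in spleen (1.58 ± 0.37, adjusted p = 0.0165), with 15976 counts in DNGR-1 KO spleen replicate 2 against 4753 and 4136 in the other 2 spleen samples. Mlst8, an mTOR subunit, gave 46 counts in the single WT spleen sample and 331 and 624 in DNGR-1 KO spleen (log2 fold change 3.04 ± 0.70, edgeR).

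Of 17 initiation cofactors outside the Eif symbols, 1 rose and 2 fell between tissues, beside 7.28% and 12.3% of all genes tested. Dhx29, a helicase for structured leaders, rose from 21 ± 5.75 to 49.5 ± 10.7 CPM (1.27 ± 0.31, adjusted p = 0.0181, edgeR). Pabpc4, a poly(A)-binding protein, fell (-2.01 ± 0.58, adjusted p = 0.0382), and Dohh was the other. Paip2b, an inhibitor of poly(A)-binding protein, had 0 counts in the single WT spleen sample and 134 and 229 in DNGR-1 KO spleen. None of 10 elongation and termination factors was called in any of the 4 comparisons.

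The proliferation list fell between tissues. Of 11 genes, 10 were lower in spleen and 0 higher, beside 12.3% and 7.28% of all genes tested. Ccnb1, the mitotic cyclin, was at 488 ± 27.9 CPM in BM and 7.31 ± 1.77 CPM in spleen. Mcm5, a replicative helicase subunit, was at 525 ± 44.7 and 86.4 ± 22.2 CPM. Bub1 had 634 to 2511 counts in BM and 0 in every spleen sample. Between the spleen genotypes 3 of the 11 (Top2a, Ccna2 and Cdk1) were higher in DNGR-1 KO and 0 lower, beside 8.37% and 2.45% of all genes. These calls rest on the single WT spleen sample. It had 248 counts of Top2a against 778 and 1394 in DNGR-1 KO spleen. Ccna2 had 0 against 41 and 16, and Cdk1 had 3 against 240 and 240. Between tissues the exception was Myc (311 ± 116 and 210 ± 53.5 CPM, -0.46 ± 0.37, adjusted p = 0.443, edgeR). The drop in these genes and the changes in the group of eIF4F and helicase cofactors ran in the same samples. Whether one accounts for the other was not tested.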

How the data were processed

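Total RNA-seq of sorted pre-cDCs was analysed in 9 samples. Genotype and tissue, as labelled, defined the groups. For WT samples the labels conflict (source CD45.1, description CD45.2), and CD45.1 was taken, after the study's methods. The deposited table holds estimated counts per gene, which the authors did not normalize. The submitters' processing notes name Trimmomatic 0.36, STAR 2.5.2, RSEM 1.3.0, DESeq2 1.18.1, R 3.4.3 and GRCm38. A second deposited table, on the log2 scale after a variance stabilizing transformation by the authors, was not used here. All columns belonged to the 9 samples. Whole raw counts had been assumed when the tests were planned, so estimated counts were rounded for edgeR. Reads shared by paralogs or pseudogenes (Eif4a1, Eif4e, Eif5a, Eif3j1 and Eif3j2, for example) could have been divided between them.

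The members and lists were chosen with earlier results of these data known. Symbols, coordinates and lengths came from GENCODE M21, not necessarily the annotation of the authors, and 51633 of 51912 identifiers had a symbol there.

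Tests were run on all genes that passed edgeR's filterByExpr, with TMM normalization, edgeR 4.0.16 (quasi-likelihood test) in R 4.3.3 and Benjamini-Hochberg adjustment over all genes tested (threshold 0.05). BM samples alone were used for the genotype comparison in BM, all 9 samples with genotype as a covariate for tissue, and a 4-group fit for the genotype difference in spleen and its interaction with tissue. Log2 CPM used a prior count of 2. Named with values were all members past the threshold in a comparison, the highest and the lowest level per kb in each functional group, paralog families, Eif2s3x, members in the CD45 congenic interval or within 5 Mb of Clec9a, and the 5 members with the largest spleen genotype difference. From the pathway lists the genes past the threshold were named, and other genes named were chosen after their values were seen. Alternatives were DESeq2 1.42.0, limma-voom (limma 3.58.1), RLE factors, no filter, at least 10 counts in every sample, each sample left out, the replicate block, the congenic score as covariate and other sample sets. A transcript length offset, and the replicate block for the spleen genotype difference and the interaction, were added after seeing the data. The fits were also run on simulated data, with outcomes not given here. For the spleen contrasts, simulated WT spleen counts took the spread estimated over all groups. That run could not show how far a contrast with 1 WT spleen sample can be relied on. Same-numbered WT and DNGR-1 KO BM samples correlated in their deviations from the group means at r = 0.10, 0.099 and -0.082, so the numbers were not taken to pair samples. No pair of replicates agreed within sampling noise (chi-square per gene 30.8 to 267).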

Additional observations from a re-analysis of the deposited data

Results flagged for a closer look

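The genotype difference (DNGR-1 KO against WT) differed between spleen and BM for 3 members by the interaction contrast of the 4-group edgeR fit. For Eif4enif1 the interaction was 5.12 ± 0.91 on the log2 scale (adjusted p = 0.00946), from a difference of -0.34 in BM and 4.77 in spleen. For Eif3b it was 4.29 ± 0.65 (adjusted p = 0.00469), from -0.87 in BM and 3.43 in spleen. For Eif2b3 it was 2.94 ± 0.72 (adjusted p = 0.0375), from -0.61 in BM and 2.34 in spleen. The spleen difference in each rests on 1 WT sample, which was also at least 4-fold below both DNGR-1 KO spleen samples for 11.8% of all genes. Y-linked counts separated the same samples, so sex and genotype cannot be told apart in that difference. Over the alternatives the interaction passed in 13 of 14 for Eif4enif1, 14 of 15 for Eif3b and 8 of 15 for Eif2b3.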

How the results depend on the processing

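In BM, 0 members were called under all 15 alternatives. Between tissues 10 members were called, and the count became 4 with the replicate block and 2 with DNGR-1 KO samples only, and 4 to 10 with 1 sample left out (4 without WT spleen replicate 2, 5 without DNGR-1 KO BM replicate 1, 6 without DNGR-1 KO BM replicate 3). In spleen, 3 members were called between genotypes, 0 with limma-voom or the 3 spleen samples only, 1 with at least 10 counts in every sample, and 2 to 5 with 1 sample left out (5 without DNGR-1 KO spleen replicate 1). Of the interaction, 3 were called, 0 with limma-voom, 1 with at least 10 counts in every sample, and 2 to 5 with 1 sample left out (5 without DNGR-1 KO spleen replicate 1). The cause of these moves was not tested, except that the count minimum tested 47 members. With the replicate block no member was called in BM, and 2 were called for each spleen contrast.

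The members' median log2 fold change between tissues (-0.34) was -0.15 with DNGR-1 KO samples only (-0.1501) and -0.38 to -0.15 with 1 sample left out, in BM (-0.18) it was -0.25 to -0.05, in spleen (0.18) 0.05 to 0.20, and for the interaction (0.34) 0.076 (without DNGR-1 KO spleen replicate 2) to 0.36. The median level was 57.6 CPM per kb with the longest transcript in place of the exon union (42.8). Of the 271 alternative values of the called members, 197 stayed past the threshold, 74 did not, and none changed sign. Low counts limit what the low members can show, such as 9 of Eif4enif1 in WT spleen and 6 of Eif4ebp3 in DNGR-1 KO spleen replicate 1. The 1 WT spleen sample limits the spleen contrast.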
